A study of Caenorhabditis elegans with 14 samples.

Results

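The transthyretin-like genes are the C. elegans genes whose name begins with ttr-. Taking every gene with such a name in the deposited results gave 46 genes of the 12483 listed for either strain, and all 46 were listed in both strains. The names in the Ensembl annotation hold 58 ttr genes, and the other 12, among them ttr-52 and ttr-11, were not analysed here. The 46 genes were followed in whole hermaphrodites on day 6 of adulthood, grown at 20 °C on HT115 bacteria that carried either the empty RNAi vector (EV) or anc-1 RNAi. ANC-1 is the outer nuclear membrane protein that links the nucleus to actin filaments within the LINC complex, and the question put to the data was how its knockdown changes gene expression. Wild-type worms (strain N2) gave 3 EV and 3 anc-1 RNAi libraries. Worms of strain AM140 gave 4 of each. They carry the transgene unc-54p::Q35-YFP, a stretch of 35 glutamines fused to the yellow fluorescent protein and driven by a body-wall muscle myosin promoter, and are called polyQ35-YFP here. Both RNAi groups of a strain share its genotype, age and temperature, and the worms had been washed daily to remove progeny.

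Transthyretin-like proteins form one of the large families found mainly in nematodes. Most are small proteins with a signal peptide that are secreted, and the name comes from a distant resemblance to vertebrate transthyretin, the blood and cerebrospinal fluid carrier of thyroid hormone that can itself form amyloid. Few worm members have a known role. TTR-52 bridges phosphatidylserine on dying cells to the engulfment receptor CED-1, TTR-11 acts in axon regeneration, and TTR-33 protects dopaminergic neurons from oxidative damage. Of the 46 genes, 45 carried the term extracellular space in the deposited annotation, against 210 of all 12483 genes. Their gene models were short, with 2 to 9 exons (median 3) and 130 to 406 encoded residues (median 143), and the longest by far was ttr-14. None lay on chromosome I, 2 lay on II, 8 on III, 9 on IV, 15 on V and 12 on X. Chromosomes V and X held 32.6% and 26.1% of the ttr genes, compared to 19.3% and 14% of all listed genes.

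The libraries held 4934531 to 11563506 reads on listed genes. The normalised read count of anc-1, the RNAi target, was 291 to 349 in wild-type EV libraries and 39.6 to 68.4 under anc-1 RNAi. It was 295 to 409 and 24.8 to 50.8 in polyQ35-YFP worms, so each library matched its RNAi label. Among polyQ35-YFP worms the libraries numbered 4 stood apart from the others in both groups. Among the cell type markers followed, those of the early embryo moved with the treatment. In each strain 4 of the 6 that were listed fell (tbx-37, tbx-38, sdz-28 and pes-10), with summed counts of all 6 of 3226 to 3571 in wild-type EV and 1904 to 2202 under anc-1 RNAi, and of 3197 to 3856 and 2476 to 2994 in polyQ35-YFP worms. Of 6 intestine markers, act-5 and ifb-2 rose in wild-type worms (summed count of all 6, 1169 to 1375 in EV and 1708 to 2407 under RNAi) and act-5 in polyQ35-YFP worms (1152 to 1477 and 1785 to 2427), while vha-6 and pept-1 stood at -0.32 and -0.43 on the log2 scale in wild type and passed in neither strain. Of 4 body-wall muscle markers, unc-54 and unc-15 rose in both strains (wild-type sums 4152 to 4340 and 5251 to 6282). In polyQ35-YFP worms the muscle sum (34775 to 45967 and 56733 to 80183) was nearly all unc-54, whose promoter drives the transgene and which averaged 38887 there against 3266 in wild-type EV, and myo-3 and unc-22 stood at 0.01 and -0.36. Of 5 listed hypodermis markers, dpy-7 and sqt-3 rose and col-19 fell in wild-type worms (951 to 1012 and 1273 to 1469), and of 3 listed glia markers daf-6 rose (5.35 to 25.5 and 35.7 to 63.6). None of the markers of these 2 tissues passed in polyQ35-YFP worms. Among neuron markers unc-64 rose and unc-119 fell in wild-type worms, among germline markers glh-1 rose, and 0 markers of pharynx, coelomocytes or sperm passed in either strain. The summed coelomocyte count was 10.9 to 24.3 in polyQ35-YFP EV and 28.6 to 43.4 under RNAi. Of all genes, 7.5% passed as higher and 6.13% as lower in wild-type worms, and 0.772% and 1.47% in polyQ35-YFP worms. No listed marker was at 0 in every library (0 of each list). The part of these movements in the ttr values was not tested. In whole worms, a change in the number of cells that express a gene and a change in RNA per cell cannot be told apart.

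The level of the ttr genes covered a wide range. Normalised read counts, averaged over the 3 wild-type EV libraries, ran from 3.61 (ttr-43) to 10559.9 (ttr-51). Their median of 72.9 was close to the 64.02 of all genes listed. CEL-Seq2 reads the 3′ end of a transcript, so a count need not scale with the length of the gene, and levels are given both as counts and per kilobase of exon. Per kilobase, ttr-51 (21954), ttr-15 (5393), ttr-2 (5250.4) and ttr-45 (2175) were the highest of the family, in this order on either scale. Further down the order depended on the scale, ttr-14, the longest, standing at rank 20 by count and 29 per kilobase. Those 4 genes made up 71.4% of the summed ttr count, ttr-51 alone 42.1%. In contrast, 29 of the 46 genes averaged under 100 counts and 6 under 10.

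In wild-type worms the ttr genes rose under anc-1 RNAi more often than listed genes in general. Of the 46, 16 rose, 1 fell and 29 did not pass the test (limma, Benjamini-Hochberg adjusted p below 0.05 over all 12061 genes). Across all genes 7.5% were called higher and 6.13% lower. The response had a median log2 fold change of 0.56 over the 46 genes, a 1.48-fold difference, while the median over all genes was 0.0035. The fold change was above 0 in 41 of the 46, or 89.1%, compared with 50.4% of all genes. In 21 ttr genes each anc-1 RNAi library lay above each EV library, whereas 15.8% of all genes showed that order, and in 1 each lay below (15.8% of all genes). The plot of all 46 responses shows both strains in the same gene order.

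**Figure D1:**
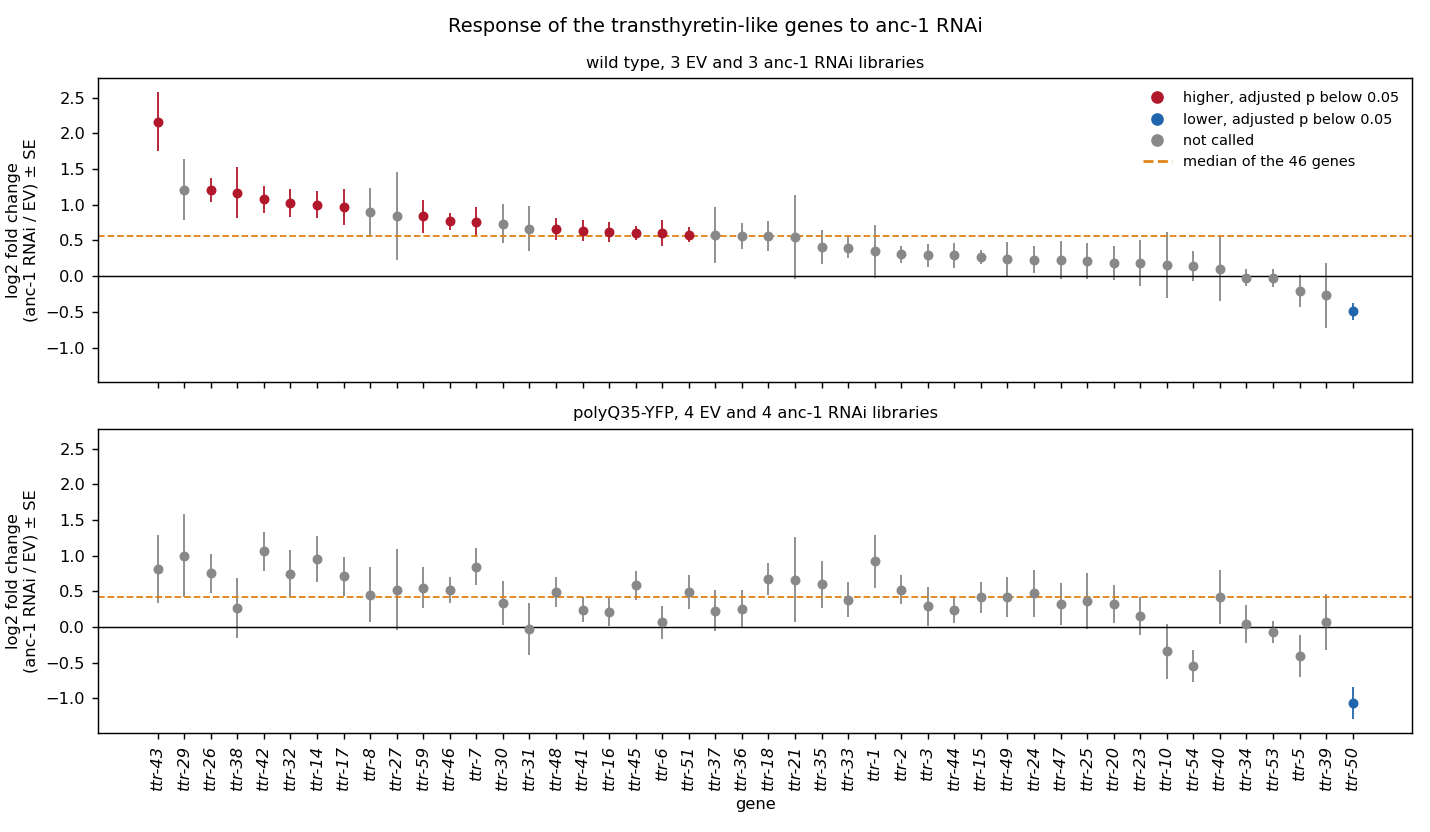
Log2 fold change between anc-1 RNAi and EV for each of the 46 ttr genes on the log2(value + 1) scale, in wild-type worms (upper panel) and polyQ35-YFP worms (lower panel), with genes ordered by the wild-type value. Points are estimates and bars are 1 standard error, red and blue mark adjusted p below 0.05, and the dashed line is the median, at 0.56 and 0.42. In wild-type worms 16 genes are red, ttr-43 leading at 2.16, and in both panels the blue gene is ttr-50.

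The 2 called genes of highest level lie side by side on chromosome IV, 1913 bases apart and on opposite strands. The counts of ttr-51 (WBGene00010440, chrIV:13250653-13252311, minus strand) were 10668, 9601 and 11411 in the EV libraries and 18353, 14145 and 15102 in the anc-1 RNAi libraries. For ttr-45 (WBGene00044737, chrIV:13254225-13255334, plus strand) they were 1396, 1371 and 1664 in the EV libraries and 2422, 2121 and 2177 in the anc-1 RNAi libraries. Both genes thus had every treated library above every EV library. The rise was 1.50-fold for ttr-51 (log2 fold change 0.58 ± 0.10 SE, adjusted p = 9.03e-04) and of like size for ttr-45, at 1.52-fold (log2 fold change 0.60 ± 0.10 SE, adjusted p = 6.90e-04). ttr-51 overlaps JC8.7 on the other strand, and no source used here gives the strand setting of the counting, so reads of the 2 genes may be mixed.

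The other members of high level behaved less uniformly. ttr-15 (WBGene00011561, chrIII:10337840-10339435, plus strand), second in level, read 3272, 3137 and 3445 in the EV libraries and 4108, 3514 and 4237 in the anc-1 RNAi libraries. Counts of ttr-2 (WBGene00010539, chrIII:9927732-9929007, plus strand), the third, were 2567, 2472 and 2774 in the EV libraries and 2697, 3229.8 and 3808 in the anc-1 RNAi libraries. The groups of ttr-15 did not overlap, and in ttr-2 anc-1 RNAi replicate 1 lay among the EV libraries. Neither passed the test (log2 fold change 0.26 ± 0.10 SE, adjusted p = 0.0789 for ttr-15 and log2 fold change 0.30 ± 0.11 SE, adjusted p = 0.085 for ttr-2). With the replicate number as a block both did, at adjusted p = 0.048 and 0.0356.

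Among genes of middle level, 6 rose. ttr-46 (WBGene00011571, chrV:9951233-9952177, plus strand) was counted at 519, 466 and 528 in the EV libraries and 971, 818 and 796 in the anc-1 RNAi libraries. ttr-48 (WBGene00022515, chrX:3840866-3842468, minus strand) had 247, 215 and 283 in the EV libraries and 483, 336 and 362 in the anc-1 RNAi libraries. ttr-16 (WBGene00012382, chrIV:11063512-11064141, minus strand) had 231, 269.8 and 291 in the EV libraries and 356, 398 and 469.6 in the anc-1 RNAi libraries. In these 3 genes the treated libraries were all above the EV libraries. ttr-46 was 1.70-fold higher under anc-1 RNAi (log2 fold change 0.77 ± 0.12 SE, adjusted p = 2.05e-04). The rise of ttr-48 was 1.57-fold (log2 fold change 0.65 ± 0.15 SE, adjusted p = 0.00771) and that of ttr-16 was 1.54-fold (log2 fold change 0.62 ± 0.14 SE, adjusted p = 0.0058). ttr-16 overlaps lin-3 on the other strand.

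ttr-41, ttr-6 and ttr-17 complete the set of middle level. The counts of ttr-41 (WBGene00017374, chrII:4727318-4727871, minus strand) were 131, 150.3 and 135 in the EV libraries and 222, 212 and 214 in the anc-1 RNAi libraries. For ttr-6 (WBGene00020886, chrX:6596462-6597121, minus strand) they were 83.7, 92.1 and 132 in the EV libraries and 151, 141 and 168 in the anc-1 RNAi libraries. ttr-17 (WBGene00012383, chrIV:11066006-11067072, minus strand), the neighbour of ttr-16 on the same strand, had 513, 424 and 946 in the EV libraries and 1410.4, 735 and 1486 in the anc-1 RNAi libraries. Groups were separate for ttr-41 and ttr-6, while in ttr-17 the lowest treated library, replicate 2, fell below EV replicate 3. ttr-41 rose 1.56-fold (log2 fold change 0.64 ± 0.14 SE, adjusted p = 0.00592). ttr-6 rose 1.52-fold (log2 fold change 0.60 ± 0.19 SE, adjusted p = 0.0385) and ttr-17 rose 1.95-fold (log2 fold change 0.97 ± 0.25 SE, adjusted p = 0.0148). The call of ttr-17 was absent from DESeq2 on the recovered reads (adjusted p = 0.173), and under the block its adjusted p was 2.61e-05.

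The 8 remaining genes that rose had mean EV counts under 100, and they rose 1.69-fold (ttr-7) to 4.48-fold (ttr-43). ttr-26 (WBGene00013079, chrV:18558735-18560306, minus strand) read 79.2, 83.7 and 109 in the EV libraries and 227, 202 and 198 in the anc-1 RNAi libraries. ttr-42 (WBGene00045268, chrX:2577742-2578255, plus strand) read 102, 67.9 and 86.6 in the EV libraries and 220.5, 144 and 179.9 in the anc-1 RNAi libraries. ttr-14 (WBGene00011460, chrX:10787507-10789690, plus strand) read 112, 70.9 and 71.6 in the EV libraries and 163, 159 and 179.9 in the anc-1 RNAi libraries. In none of these 3 did the groups overlap. ttr-26 had the smallest adjusted p of the family and rose 2.31-fold (log2 fold change 1.21 ± 0.17 SE, adjusted p = 9.82e-05). The values were 2.105-fold for ttr-42 (log2 fold change 1.07 ± 0.20 SE, adjusted p = 0.00111) and 2.00-fold for ttr-14 (log2 fold change 1.00 ± 0.19 SE, adjusted p = 0.00171). ttr-42 and ttr-14 overlap H01M10.1 and vap-2 on the other strand.

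ttr-32, ttr-7 and ttr-59 had lower counts again. ttr-32 (WBGene00020047, chrIII:7566413-7567489, plus strand) had 64.2, 72.1 and 73.8 in the EV libraries and 151, 109 and 176 in the anc-1 RNAi libraries. ttr-7 (WBGene00020566, chrIII:606029-606928, plus strand) had 43.6, 61.8 and 66.3 in the EV libraries and 108, 83.5 and 98.3 in the anc-1 RNAi libraries. ttr-59 (WBGene00020339, chrX:7329821-7330643, plus strand) had 29.8, 32.1 and 32.1 in the EV libraries and 63.6, 52.4 and 54.9 in the anc-1 RNAi libraries. Again no treated library reached down to an EV library. The rise was 2.03-fold for ttr-32 (log2 fold change 1.02 ± 0.20 SE, adjusted p = 0.00171). It was 1.69-fold for ttr-7 (log2 fold change 0.76 ± 0.21 SE, adjusted p = 0.0227) and 1.79-fold for ttr-59 (log2 fold change 0.84 ± 0.23 SE, adjusted p = 0.0207). ttr-32 overlaps R13A5.7, and ttr-7 overlaps best-17, on the other strand.

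The lowest counts gave the largest fold change. ttr-43 (WBGene00007590, chrV:12589712-12590655, minus strand) was counted at 4.59, 3.03 and 3.21 in the EV libraries and 17.05, 18.6 and 23.0 in the anc-1 RNAi libraries, and ttr-38 (WBGene00044788, chrX:9312594-9314690, minus strand) at 12.6, 9.70 and 7.48 in the EV libraries and 18.2, 23.1 and 29.4 in the anc-1 RNAi libraries. In both genes the groups were separate, although the EV values of ttr-43 stand for only a few reads. ttr-43 rose 4.48-fold (log2 fold change 2.16 ± 0.41 SE, adjusted p = 0.00171), and its log2 fold change ranged from 1.51 to 2.47 over the other settings, the lowest with a pseudocount of 5. ttr-38 rose 2.25-fold (log2 fold change 1.17 ± 0.36 SE, adjusted p = 0.0369), and DESeq2 did not call it (adjusted p = 0.0790). ttr-33, the member that protects dopaminergic neurons (WBGene00016505, chrV:7837088-7837935, minus strand), read 224, 209 and 266 in the EV libraries and 361, 274 and 287 in the anc-1 RNAi libraries. Its libraries were separate by group, but the difference did not pass the test (log2 fold change 0.40 ± 0.15 SE, adjusted p = 0.0847), and it overlaps mig-6 on the other strand and txt-5 on the same strand.

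One member went the other way. ttr-50 (WBGene00010234, chrIV:11640145-11641015, minus strand), the fifth by count, read 999, 1119.7 and 923 in the EV libraries and 728, 616 and 822 in the anc-1 RNAi libraries. All 3 treated libraries lay below all 3 EV libraries. ttr-50 fell to 0.710 of the EV level (log2 fold change -0.49 ± 0.12 SE, adjusted p = 0.0108). This call was lost without EV replicate 2 or without anc-1 RNAi replicate 2, the highest adjusted p among the single libraries left out being 0.0754. Of the 16 genes that rose, 10 were called whichever library was left out, namely ttr-14, ttr-16, ttr-26, ttr-32, ttr-41, ttr-42, ttr-43, ttr-45, ttr-46 and ttr-51. The other 6 lost their call without at least 1 library, with adjusted p reaching 0.0550 for ttr-48, 0.0901 for ttr-59, 0.0996 for ttr-7 and ttr-17, 0.136 for ttr-38 and 0.146 for ttr-6. The lowest count of risers was 11, without EV replicate 2. Over all genes 633 were then called higher, against 905 with every library. Without the variance trend, limma called 5 of the 16 (2.73% of all genes were called higher), ttr-26, ttr-41, ttr-43, ttr-46 and ttr-59. The other 11, among them ttr-14, ttr-16, ttr-32, ttr-42, ttr-45 and ttr-51, then had adjusted p from 0.0536 to 0.222, and ttr-50 had 0.139.

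In polyQ35-YFP worms the fold changes were mostly above 0 as well, but the spread between libraries was wider and few genes passed the test. Without a block, 0 ttr genes rose and 1 fell (limma, adjusted p below 0.05 over 12173 genes), against 0.772% of all genes called higher and 1.47% called lower. At an unadjusted p below 0.05, 12 were higher and 2 lower, where 7.44% and 8.08% of all genes were. DESeq2 called 3 ttr genes higher (ttr-7, ttr-14 and ttr-42) and 1.64% of all genes, and edgeR called 0 and 0.657%. The median log2 fold change of the 46 genes was 0.42 (1.34-fold), compared with 0.034 over all genes. The fold change was above 0 in 40 ttr genes, or 87.0%, against 53.96% of all genes. Only 3 ttr genes had all treated libraries above all EV libraries (3.39% of all genes did), namely ttr-7, ttr-18 and ttr-42. In 1, ttr-50, all were below (5.94% of all genes).

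The libraries numbered 4 held the lowest values in both groups. In EV replicate 4, 34 of the 46 ttr genes had their lowest EV value, which was the case for 37.2% of all genes. Relative to the mean of the 4 EV libraries, the median ttr gene stood at -0.58 in that library on the log2 scale, at 0.39 in EV replicate 1, 0.22 in EV replicate 3 and 0.0076 in EV replicate 2. Under anc-1 RNAi replicate 4 was again the low one, at 0.077, whereas the other 3 libraries stood at 0.48 to 0.60. Over all genes these medians stayed between -0.048 and 0.038. The plot of the family by library shows the 2 low boxes. Compared within pairs of the same number, 27, 37, 30 and 40 of the 46 genes were higher under anc-1 RNAi in pairs 1 to 4, with median log2 differences of 0.11, 0.46, 0.41 and 0.64. In wild-type worms the pairs gave 37, 38 and 40 genes and medians of 0.60, 0.48 and 0.41. There the libraries numbered 2 were the low ones for the ttr genes. EV replicate 2 held the lowest EV value of 27 of the 46 (29.7% of all genes). Treated replicate 2 held the lowest treated value of 29 (33.6% of all genes).

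**Figure D2:**
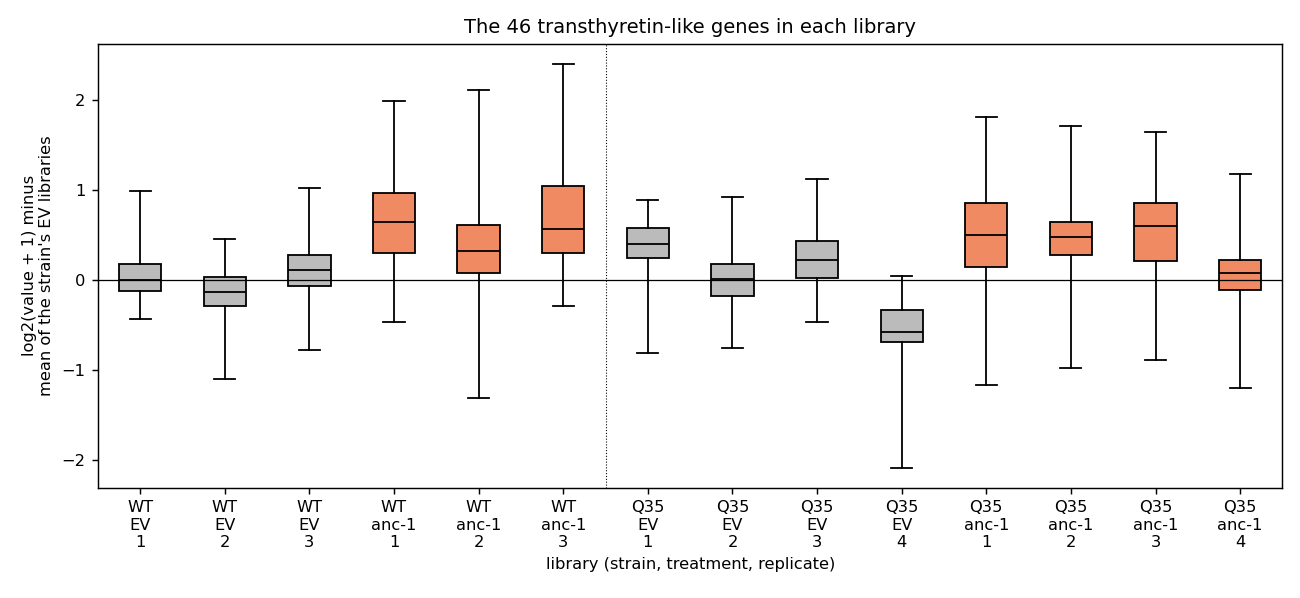
Each box summarises the 46 ttr genes in 1 library as log2(value + 1) minus the mean of the EV libraries of the same strain. Boxes span the quartiles with the median as a line, and whiskers reach the lowest and highest gene. The median gene stands at 0.64, 0.31 and 0.56 in the 3 wild-type anc-1 RNAi libraries, and polyQ35-YFP EV replicate 4 is the lowest box at -0.58.

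With the replicate number as a block, which sets each treated library against the EV library of its own number, 11 ttr genes rose and 2 fell in polyQ35-YFP worms. The same fit called 3.83% of all genes higher and 4.3% lower. The risers were ttr-2, ttr-7, ttr-14, ttr-15, ttr-17, ttr-18, ttr-26, ttr-42, ttr-45, ttr-46 and ttr-51, of which 8 had also risen in wild-type worms without a block. In wild-type worms the block added ttr-2, ttr-15, ttr-29 and ttr-36 to the genes that rose, for 20 in all (8.81% of all genes). Leaving out polyQ35-YFP EV replicate 4 gave a median of 0.25 over the ttr genes, with ttr-42 higher and ttr-50 and ttr-54 lower, and leaving out anc-1 RNAi replicate 4 gave a median of 0.52.

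The genes of high level show how the pairs line up. ttr-51 read 14988, 8779.9, 10125 and 6031 in the EV libraries and 15634, 13485, 15805 and 9516 in the anc-1 RNAi libraries. ttr-45 read 1919.7, 1384, 1224 and 961 in the EV libraries and 2213, 2033, 2426 and 1447 in the anc-1 RNAi libraries. ttr-46 read 836, 599, 432 and 553 in the EV libraries and 871, 895, 904 and 716 in the anc-1 RNAi libraries. In each of the 3 the treated library of a pair was above its own EV library, while the groups overlapped, since EV replicate 1 was the highest EV library and replicate 4 the lowest treated one. Without the block ttr-51 did not pass (log2 fold change 0.50 ± 0.24 SE, adjusted p = 0.343), and with it the adjusted p was 0.0201. For ttr-45 (log2 fold change 0.58 ± 0.21 SE, adjusted p = 0.175) the blocked value was 0.00947, and for ttr-46 (log2 fold change 0.52 ± 0.18 SE, adjusted p = 0.171) it was 0.0388.

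ttr-15 and ttr-2 had the same arrangement. Counts of ttr-15 were 3853, 2735, 3096 and 1765 in the EV libraries and 3852, 4249, 4206 and 2652 in the anc-1 RNAi libraries. Those of ttr-2 were 2104, 1561, 1996 and 1099 in the EV libraries and 2345, 2272, 3099 and 1855 in the anc-1 RNAi libraries. Replicate 1 of ttr-15 was level between treatments, and its other pairs were higher under RNAi, as were all pairs of ttr-2. ttr-15 (log2 fold change 0.42 ± 0.22 SE, adjusted p = 0.388) and ttr-2 (log2 fold change 0.52 ± 0.20 SE, adjusted p = 0.228) passed with the block only, at adjusted p = 0.0424 and 0.0116.

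The clearest differences among the genes of lower level were those of ttr-42, ttr-7 and ttr-18. ttr-42 read 102, 57.1, 63.1 and 40.2 in the EV libraries and 133, 109.6, 180.4 and 110.4 in the anc-1 RNAi libraries. ttr-7 read 85.8, 87.1, 81.9 and 41.9 in the EV libraries and 107, 169, 149 and 102 in the anc-1 RNAi libraries. ttr-18 (WBGene00007142, chrII:11485510-11486774, minus strand) read 75.3, 60.8, 57.6 and 40.2 in the EV libraries and 111, 95.6, 82.9 and 80.0 in the anc-1 RNAi libraries. The groups of these genes did not overlap. ttr-42 came nearest to the threshold without a block (log2 fold change 1.06 ± 0.27 SE, adjusted p = 0.0593; 0.00547 with it). For ttr-7 (log2 fold change 0.84 ± 0.26 SE, adjusted p = 0.118) the blocked adjusted p was 0.0112. For ttr-18 (log2 fold change 0.67 ± 0.22 SE, adjusted p = 0.152) it was 0.0333.

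In ttr-14, ttr-26 and ttr-17 the treated library of each pair was the higher one although the groups overlapped. ttr-14 had 103, 71.5, 90.8 and 44.4 in the EV libraries and 159, 153, 233 and 77.1 in the anc-1 RNAi libraries. ttr-26 had 147, 82.8, 88.5 and 59.5 in the EV libraries and 198, 139.9, 188 and 100.9 in the anc-1 RNAi libraries. ttr-17 had 172, 98.4, 137 and 78.0 in the EV libraries and 269, 154, 238 and 133 in the anc-1 RNAi libraries. The overlap came from treated replicate 4, and in ttr-26 and ttr-17 also from treated replicate 2. Without the block the log2 fold changes were 0.96, 0.75 and 0.71, at adjusted p = 0.153, 0.196 and 0.218. With it the adjusted p values were 0.00376, 0.0109 and 0.00708.

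The other genes that had risen in wild-type worms did not pass in polyQ35-YFP worms with or without the block. ttr-48 read 427, 271, 238 and 206 in the EV libraries and 391, 372, 482 and 321 in the anc-1 RNAi libraries. ttr-32 read 59.1, 45.8, 91.9 and 33.5 in the EV libraries and 145, 101.4, 82.9 and 56.2 in the anc-1 RNAi libraries. ttr-59 read 62.6, 40.1, 28.8 and 27.7 in the EV libraries and 66.7, 54.8, 67.1 and 39.0 in the anc-1 RNAi libraries. Their groups overlapped through a high EV library, replicate 1 or 3. The log2 fold change was 0.50 ± 0.21 for ttr-48, 0.75 ± 0.32 for ttr-32 and 0.55 ± 0.29 for ttr-59 (SE). For ttr-41 the counts were 213, 202, 153 and 156 in the EV libraries and 233, 205, 247 and 171 in the anc-1 RNAi libraries, and for ttr-16 they were 163, 124, 158 and 93.9 in the EV libraries and 140.0, 173, 158 and 144 in the anc-1 RNAi libraries. Each of these had smaller differences than in wild-type worms, at 0.24 ± 0.18 and 0.21 ± 0.20 on the log2 scale, but the difference between strains did not pass its own test.

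Near 0 stood ttr-6, with 48.7, 85.3, 68.6 and 49.5 in the EV libraries and 63.9, 73.4, 67.1 and 54.3 in the anc-1 RNAi libraries (log2 fold change 0.07 ± 0.23 SE). ttr-38 had 3.48, 8.15, 11.1 and 6.71 in the EV libraries and 9.40, 6.99, 13.2 and 5.71 in the anc-1 RNAi libraries, and ttr-43 had 9.27, 2.51, 8.85 and 2.51 in the EV libraries and 5.64, 9.32, 11.8 and 12.4 in the anc-1 RNAi libraries. These 2 genes hold few reads in this strain and their groups overlapped widely, with log2 fold changes of 0.26 ± 0.42 and 0.81 ± 0.47. ttr-33 read 229.5, 248, 291 and 125 in the EV libraries and 389, 279, 234 and 236 in the anc-1 RNAi libraries. EV replicate 4 was its lowest library and treated replicate 1 its highest, and the difference did not pass (log2 fold change 0.38 ± 0.25 SE, adjusted p = 0.518).

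**Figure D3:**
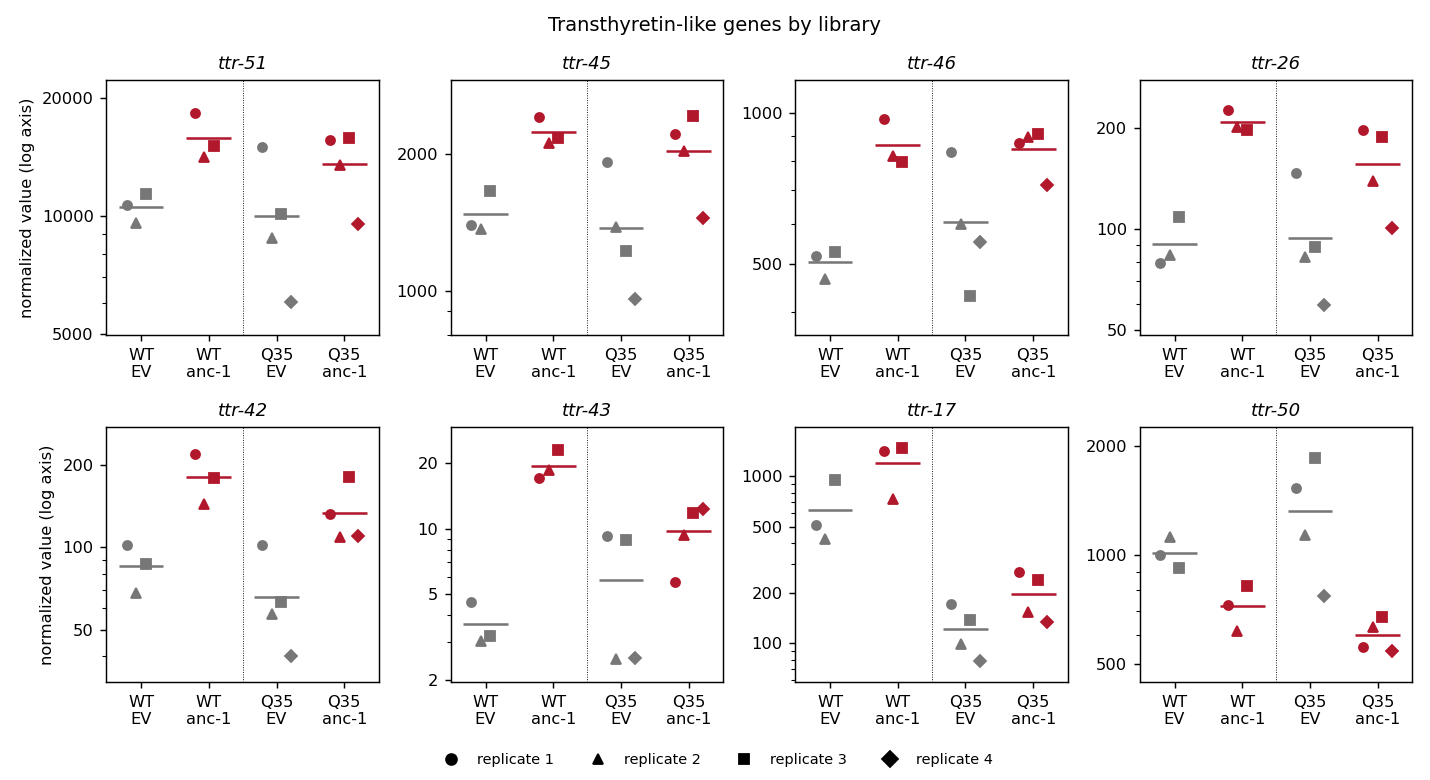
Normalised read count of 8 ttr genes in each library, on a log axis that differs between panels. Grey marks are EV and red marks anc-1 RNAi libraries, shapes give the replicate number, horizontal lines are group means, and the dotted line parts wild-type (left) from polyQ35-YFP libraries, which were normalised separately. In ttr-50 the red marks lie below the grey ones in both strains, and in ttr-51 and ttr-45 the polyQ35-YFP libraries numbered 4 are the lowest of their groups.

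ttr-50 fell in polyQ35-YFP worms too. Its counts were 1530.2, 1137, 1853 and 771 in the EV libraries and 557, 634, 675 and 544 in the anc-1 RNAi libraries. All treated libraries were below all EV libraries, and they lay closer together than the EV libraries did. It fell to 0.478 of the EV level (log2 fold change -1.06 ± 0.22 SE, adjusted p = 0.0241; 7.56e-04 with the block). Although the direction held in every setting, the unblocked call was lost when any single library other than EV replicate 4 was left out (adjusted p up to 0.0854), and without EV replicate 4 the adjusted p was 2.14e-04. ttr-50 was also the single ttr gene lower in every pair of both strains.

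ttr-54, another gene of middle level (WBGene00011774, chrIV:10156123-10156771, plus strand), was the second gene to fall under the block in polyQ35-YFP worms. It read 617, 416, 696 and 361 in the EV libraries and 442, 332, 389.7 and 248 in the anc-1 RNAi libraries. In every pair the treated library was the lower one, while the groups overlapped. The unblocked test did not pass (log2 fold change -0.55 ± 0.23 SE, adjusted p = 0.256), and with the block the adjusted p was 0.0138. In wild-type worms ttr-54 read 905, 631 and 1315 in the EV libraries and 1079.7, 717 and 1299 in the anc-1 RNAi libraries, with overlapping groups and no difference that passed (log2 fold change 0.14 ± 0.21 SE, adjusted p = 0.723). Its neighbour ttr-53 had values of -0.03 ± 0.12 for wild-type and -0.07 ± 0.15 for polyQ35-YFP worms (log2 fold change ± SE).

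Set side by side, the responses of the 2 strains went together. No library was shared between them, and 38 of the 46 genes had a fold change above 0 in both strains, 3 below 0 in both. Across the 46 genes the log2 fold changes correlated at r = 0.67 (Spearman's rho 0.66), a description over genes that share their libraries, and the same r over all 11751 genes in both strains was 0.58. All 16 genes that rose in wild-type worms had fold changes above 0 in polyQ35-YFP worms, from 0.068 to 1.06 on the log2 scale. The difference between the responses was tested directly as polyQ35-YFP minus wild type, and 0 ttr genes passed with limma, with edgeR, with DESeq2 or under the block. Over all genes 0.00851% passed with limma. At an unadjusted p below 0.05 there was 1 ttr gene, and 3.46% of all genes. The largest gap was that of ttr-43, at -1.35 ± 0.64 SE (adjusted p = 0.999), and for ttr-54 the difference was -0.69 ± 0.38 SE (adjusted p = 0.999). With standard errors of this size, responses that differ by a moderate amount could not be told apart from equal ones.

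**Figure D4:**
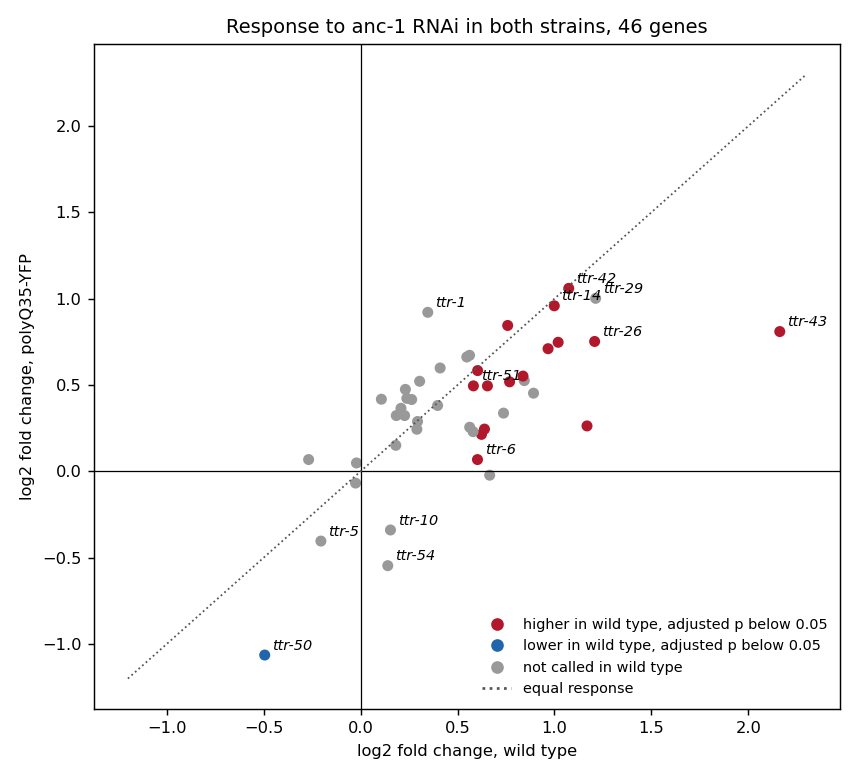
Log2 fold change between anc-1 RNAi and EV in wild-type worms (horizontal) and polyQ35-YFP worms (vertical) for the 46 ttr genes, coloured by the wild-type call, with the dotted line marking equal responses. Of the points, 38 lie above 0 on both axes and ttr-50 lies farthest to the lower left, at -0.49 and -1.06.

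Some neighbouring ttr genes had like values and others did not, and no comparison with ttr genes farther apart was made. In all, 22 of the 46 genes have another ttr gene within 20000 bases. ttr-45 and ttr-51 rose by nearly the same amount, and ttr-16 and ttr-17, 1864 bases apart on the same strand, both rose in wild-type worms. For ttr-32 and ttr-8, 1067 bases apart on opposite strands, the log2 values were 1.02 and 0.89, although ttr-8 did not pass the test. By contrast, in the group ttr-24, ttr-25 and ttr-26 on chromosome V, ttr-26 rose at 1.21 while ttr-24 and ttr-25 stood at 0.23 and 0.21. ttr-30 and ttr-59, 545 bases apart on chromosome X, stood at 0.74 and 0.84, the second being called. Genes with and without a neighbour of the family had similar medians in wild-type worms (0.57 and 0.55). By level, the wild-type median was 0.30 for the 5 genes of 1000 or more counts, 0.50 for the 12 from 100 to 1000, and 0.56 for the 29 below. By chromosome it ran from 0.18 on IV to 0.66 on X. Medians over all genes of each chromosome were not computed, so a shift of a whole chromosome was not tested.

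The untreated levels of some members differed between the strains. The strains were normalised separately and any batch cannot be told apart from strain, so the levels are given in CPM (reads scaled to a library total of 1000000 over the 11751 shared genes), with no test. In 10 ttr genes each wild-type EV library lay above each polyQ35-YFP EV library, and in 0 the reverse held, while 5.23% and 4.5% of all genes showed those orders. Without polyQ35-YFP EV replicate 4 the same 10 genes remained and 1, ttr-7, was higher in polyQ35-YFP worms. Of all genes, 6.98% and 10.5% then showed those orders. The largest gaps were those of ttr-25, ttr-17 and ttr-24. ttr-17 had 78.5, 66.5 and 150.5 CPM in wild-type EV and 25.1, 13.6, 19.3 and 9.65 in polyQ35-YFP EV libraries, a 5.83-fold gap in means. ttr-24 had 12.1, 9.89 and 13.6 against 2.03, 3.20, 3.12 and 1.24, a 4.95-fold gap. ttr-25 had 4.04, 5.14 and 5.10 against 0.847, 0.778, 0.935 and 0.519, a 6.18-fold gap. These were chosen after their values were seen.

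Genes that work with the characterised members were looked at beside the family. Of 20 genes that expose phosphatidylserine or take up dying cells, the setting in which TTR-52 acts, 19 were listed and 0 passed in either strain by limma or edgeR (2 and 3 at an unadjusted p below 0.05 in wild-type worms and polyQ35-YFP worms, 0 and 2 by DESeq2). At that unadjusted limma threshold stood 3334 of all 12061 genes in wild-type worms and 1890 of all 12173 in polyQ35-YFP worms. The median log2 fold changes of the 19 listed genes were -0.09 and -0.13. With the replicate block mom-5, a Frizzled receptor, passed in both strains, at -0.36 and -0.51 on the log2 scale (limma adjusted p = 0.0264 and 0.0109), and vps-34, a phosphatidylinositol kinase, in polyQ35-YFP worms (-0.64, adjusted p = 0.0333). Of the core cell death genes, egl-1, the BH3-only activator, rose in wild-type worms (1.07 ± 0.28 SE on the log2 scale, limma adjusted p = 0.0149) and ced-9, the inhibitor of CED-4, fell (-0.29 ± 0.09, 0.0350), while ced-3 and ced-4 did not pass. In polyQ35-YFP worms 0 of these 4 passed, also at an unadjusted p below 0.05 and by edgeR, by DESeq2 and with the block. Over all genes limma called 7.5% higher and 6.13% lower in wild-type worms, and 0.772% and 1.47% in polyQ35-YFP worms. Of 8 genes of axon regeneration, where TTR-11 acts, 7 were listed in wild-type worms and 3 rose. They were svh-2, a receptor tyrosine kinase (0.85 ± 0.21, 0.0119), mlk-1, a MAP kinase kinase kinase (0.53 ± 0.14, 0.0133), and eff-1, which fuses cell membranes (0.65 ± 0.20, 0.0407). In polyQ35-YFP worms 0 of 8 passed by limma, edgeR or DESeq2 (2 at an unadjusted p below 0.05). With the block eff-1 passed there (0.71, limma adjusted p = 0.0275), and pmk-3, a p38 MAP kinase, was added in wild-type worms (0.58, limma adjusted p = 0.0379). R09H10.3, a worm protein of the transthyretin-related hydrolase type, had log2 fold changes of 0.27 in both strains, with standard errors of 0.19 and 0.27, and did not pass.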

How the data were processed

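RNA of whole worms was sequenced with CEL-Seq2, which reads the 3′ end of transcripts, in 14 libraries. The authors mapped reads with TopHat2 2.1.1 to WBcel235, assigned them to protein-coding genes with HTSeq 0.6.1 without using molecular identifiers, dropped genes of mean count under 2, and compared treatments in each strain with DESeq2 1.22.2. The deposited signal per library is a read count divided by a DESeq2 size factor, set separately for each strain. The authors' log2 fold changes, the score (Wald statistic) and the deposited p-values were not used. Every value was a whole number of reads within 0.01, so the reads were recovered. Columns of other samples numbered 0.

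The 46 genes, the companion lists and the cell type markers were chosen with earlier results of these data known. The fixed design foresaw raw counts or normalised values. limma 3.58.1 in R 4.3.3 was fitted to log2(value + 1) over all genes of a strain, with a variance trend and Benjamini-Hochberg adjustment, and genes with adjusted p below 0.05 were called. Fold changes are on that scale, which understates low genes. The strain difference was the interaction in a fit of all 14 libraries. edgeR 4.0.16 and DESeq2 1.42.0 on the reads, a replicate block, other pseudocounts (0.5 and 5) and a minimum mean of 10 were alternatives. CPM, no variance trend and leaving out libraries were others. All but the leaving out of libraries were also run on simulated counts, which were drawn without a replicate effect. The library values given are those of genes called in either strain, the 3 of highest level in wild-type EV and ttr-33, and ttr-18 and ttr-54 were added after their values were seen. Per the series' design each repeat held both treatments, and the labels number the repeats, so equal numbers were taken as pairs. Deviations from group means correlated at 0.0491, 0.0806 and 0.0740 within wild-type pairs and at 0.215, 0.0949, 0.122 and 0.570 within polyQ35-YFP pairs. The correlations were thus weak in wild-type worms, where each EV library still correlated best with its own number, and 2 polyQ35-YFP EV libraries correlated more with anc-1 RNAi replicate 2 than with their own (0.271 for replicate 1 and 0.146 for replicate 3). The study calls its repeats independent, and p-values rest on the spread between these libraries. In limma each gene's variance was drawn toward a trend fitted over all genes. Its standard errors and p-values are therefore not the gene's own spread alone. Gene models and positions came from the Ensembl annotation of WBcel235. Reads shared by near-identical family members could have been split or lost, which was not tested. Promoter and protein sequences were not used here.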

Additional observations from a re-analysis of the deposited data

Results flagged for a closer look

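Over the 20 genes given by library, the 40 polyQ35-YFP groups of 4 were examined for a library far from the other 3. Such a distance arises by chance in about 1 group in 20. It was met by 1, the count of ttr-7 in polyQ35-YFP EV replicate 4, which was 41.9 against 81.9 to 87.1 in the other EV libraries. The gap was 0.884 of the range of the group. The same library held the lowest EV value of 34 of the 46 ttr genes. With it left out, the log2 fold change of ttr-7 was 0.59 and did not pass the test (limma, adjusted p = 0.104), as with it included.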

How the results depend on the processing

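In wild-type worms the median log2 fold change of the ttr genes stayed between 0.52 and 0.59 in the other fits and between 0.44 and 0.64 without any 1 library. It was 0.42 without both libraries numbered 1, an alternative chosen, like the other pairs left out, after seeing the data. There edgeR called 17 ttr genes higher and DESeq2 14 (993 and 821 of all genes), the latter without ttr-17 and ttr-38. Without the variance trend, limma called 5 ttr genes higher and 0 lower. With 1 library left out, 11 to 16 ttr genes were higher and 0 to 1 lower. Over all genes, 633 to 845 were then higher and 349 to 693 lower. Without both libraries numbered 2, 0 ttr genes were lower (291 of all genes). The call of ttr-6 was lost without EV replicate 1 or 2 or any treated library, that of ttr-7 without EV replicate 1 or treated replicate 1 or 3, and that of ttr-17 without EV replicate 1 or 2 or treated replicate 1 or 3. The call of ttr-38 was lost without either library numbered 2 or 3, that of ttr-48 without treated replicate 1 or EV replicate 2, and that of ttr-59 without either library numbered 1 or EV replicate 2. For polyQ35-YFP worms this median lay at 0.34 to 0.42 in the other fits and 0.25 to 0.52 without any 1 library. The count of genes called higher there was 3 by DESeq2, 11 with the replicate block, 0 to 2 with 1 library left out and 3 without the pair numbered 4. The count called lower was 2 with the block, 0 on CPM, 0 without the variance trend, 0 to 2 with 1 library left out, and 0 without the pairs numbered 1, 2 or 3. Leaving out 1 library turned the sign of 8 ttr genes in wild-type worms and 7 in polyQ35-YFP worms, 0 of them called in that strain, at most 5 and 4 at once. Of the genes given by library these were ttr-54 (wild type) and ttr-6 and ttr-38 (polyQ35-YFP). In the latter strain ttr-6 ran from -0.0405 (EV replicate 1 left out) to 0.225, and was -0.0331 with EV replicate 4 left out, and ttr-38 ran from -0.00728 (EV replicate 1 left out) to 0.470. Over all genes, the count called in polyQ35-YFP worms moved from 94 higher and 179 lower to 466 and 524 with the block, 200 and 394 with DESeq2, 32 and 94 on CPM and 1 and 6 without the trend, and it was 305 and 535 without EV replicate 4. In wild-type worms it moved from 905 and 739 to 329 and 155 without the trend. The strain difference called 0 ttr genes in every setting run. Apart from the genes given in the report, the block changed no call of a ttr gene. The cause of these differences was not tested. Depth limits the lowest genes, such as ttr-43 with only a few reads behind each wild-type EV value.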
